A study of Mus musculus with 6 samples.

Results

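The interferon-induced transmembrane (IFITM) genes followed here are Ifitm1, Ifitm2, Ifitm3 and Ifitm10, 4 of the 26771 genes listed in any library. They were found by their symbols in the deposited tables and were selected on measured values, their levels before and after culture in these same libraries, so their differences are given below as a description, with no test. The series compared RNA from γδT17 cells, the γδ T lymphocytes that secrete IL-17, of TCRβ-/- mice on the C57BL/6 background, which lack αβ T cells, with spleen as the source. The Initial group holds 3 libraries, from mice A, B and C, of cells sorted from splenocytes before culture. The Induced group holds 3 libraries, from mice given the same letters, of cells harvested on day 8 of a culture that used IL-1β and IL-23 and then purified with the Pan T Cell Isolation kit II. Every library of both groups therefore shares the TCRβ-/- genotype, the Induced cells were grown in mixed splenocyte cultures before purification, and the sources used here do not say how the Initial cells were gated, nor the age of the mice.

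IFITM proteins are small membrane proteins that sit at the cell surface and in endosomes, where they hinder the fusion of enveloped viruses with cell membranes. Interferons raise many of them through STAT and IRF transcription factors, which bind the interferon-stimulated response element (ISRE) and the gamma-activated site (GAS) in promoters. IFITM1 lies mainly at the plasma membrane, while IFITM2 and IFITM3 reach late endosomes and lysosomes through a sorting signal in their longer N-terminal part. The genes are also expressed by lymphocytes, and IFITM proteins occur at the surface of lymphocytes together with tetraspanins such as CD81. Ifitm10 is a distant member of the family that is not known as a classical interferon target.

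Values are in FPKM, fragments scaled to transcript length and to library size, so levels can be compared between genes. A gene with no row in a library counted as 0 there. Differences are between group means of log2(FPKM + 1), which understates the change of genes at low levels. The depth, estimated from the steps of low values, was 18000000 to 23100000 fragments per library, a rough figure. Of 11265 genes with at least 1 FPKM in at least 3 libraries, 70.4% were called changed by limma with Benjamini-Hochberg adjustment (adjusted p under 0.05), 37.3% higher and 33.1% lower in Induced cells. Of the called genes 52.9% were higher, and 67.3% when the libraries were scaled to the CD3 chains and Trdc, which moved the median difference of all tested genes from 0.03 to 0.24. The summed level of the T cell list (Cd3d, Cd3e, Cd3g, Cd247 and Trdc) was 1560 to 1696 FPKM in Initial and 1378 to 1502 FPKM in Induced libraries, so markers of γδ T cells in general were present in both, and the type 17 identity was not checked here. Several lists of other cells' markers were lower after culture, and others were not. All 9 macrophage markers fell, from a summed 467.1 to 823 FPKM down to 1.71 to 4.345 FPKM, and Spic and Marco were at or near 0 in Induced libraries. All 6 red cell markers fell as well, from 1217 to 1742 FPKM down to 1.166 to 1.631 FPKM, with no row for Alas2 in any Induced library. The 7 tested of 8 B cell markers fell, from 207 to 248 FPKM down to 25.76 to 51.6 FPKM. Of 5 tested of 6 dendritic cell markers 3 fell and Xcr1 rose, with sums of 12.42 to 15.72 FPKM in Initial and 3.308 to 8.41 FPKM in Induced libraries. Of 2 tested of 7 endothelial and stromal markers Pdgfrb rose, with sums of 56.66 to 68.8 FPKM and 47.93 to 68.6 FPKM. In these bulk samples fewer cells of a type and less RNA per cell cannot be told apart, and the part of these cells in the differences of the IFITM genes was not tested.

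Ifitm1 went from near the bottom of the expressed range to near its top. It stood at 1.10, 1.60 and 1.07 FPKM in Initial libraries A, B and C, and at 162, 73.4 and 426 FPKM after culture in A, B and C. The lowest Induced library lay far above the highest Initial one, and the Induced libraries themselves spread 5.80-fold from B to C. The means were 1.26 ± 0.299 FPKM (SD, n = 3) and 220 ± 183 FPKM (SD, n = 3), a ratio of 175. The log2 difference of 6.27 was the largest rise among the 11265 genes tested, and it was 5.62 without Induced library C and 6.88 without Induced library B. By mean level Ifitm1 was number 10545 of these genes in Initial and number 313 in Induced cells. About 19 to 27 fragments stood behind each Initial value, so the size of the ratio rests on few fragments. The gene (ENSMUSG00000025491) lies at chr7:140967221-140969825 on the plus strand of GRCm38.

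Ifitm2 was higher in every Induced library too, by a smaller step. Its levels were 18.3, 13.4 and 13.0 FPKM in Initial libraries A, B and C, and 58.1, 46.5 and 121 FPKM in the Induced libraries of mice A, B and C. The groups did not overlap, and mouse C again gave the highest Induced value. The means of 14.9 ± 2.94 and 75.3 ± 40.2 FPKM (SD, n = 3 each) stood in a ratio of 5.05, with a log2 difference of 2.15, number 359 from the largest rise, and 1.75 without Induced library C. The gene (ENSMUSG00000060591) lies at chr7:140954837-140955987 on the minus strand, beside Ifitm1.

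Ifitm3, the member best known for blocking influenza virus in endosomes, did not separate the groups. It stood at 28.1, 21.2 and 15.1 FPKM in Initial libraries A, B and C, and at 29.9, 20.5 and 68.3 FPKM after culture in A, B and C. Libraries A and B lay within the range of their Initial counterparts or just above it, and only mouse C was well above. The means were 21.5 ± 6.48 and 39.6 ± 25.3 FPKM (SD, n = 3 each), with a log2 difference of 0.71 that was 0.24 without Induced library C. The gene (ENSMUSG00000025492) lies at chr7:141009586-141010770 on the minus strand.

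Ifitm10 went the other way. It was the most abundant of the 4 in every Initial library, at 47.6, 37.4 and 49.0 FPKM in A, B and C, and stood at 3.42, 2.25 and 16.3 FPKM in the Induced libraries of mice A, B and C. The groups did not overlap, and mouse C kept the highest Induced level. The means of 44.6 ± 6.33 and 7.31 ± 7.77 FPKM (SD, n = 3 each) stood 6.10-fold apart, with a log2 difference of -2.85, number 312 from the largest fall. The difference was -3.58 without Induced library C and -2.37 without Induced library B. The gene (ENSMUSG00000045777) lies at chr7:142325837-142373753 on the minus strand, apart from the other three. Of all tested genes, 40.0% had every Induced library above every Initial one and 35.4% had every one below. Ifitm1 and Ifitm2 were of the first kind and Ifitm10 of the second, which the selection of the genes on these values fixed.

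**Figure D1:**
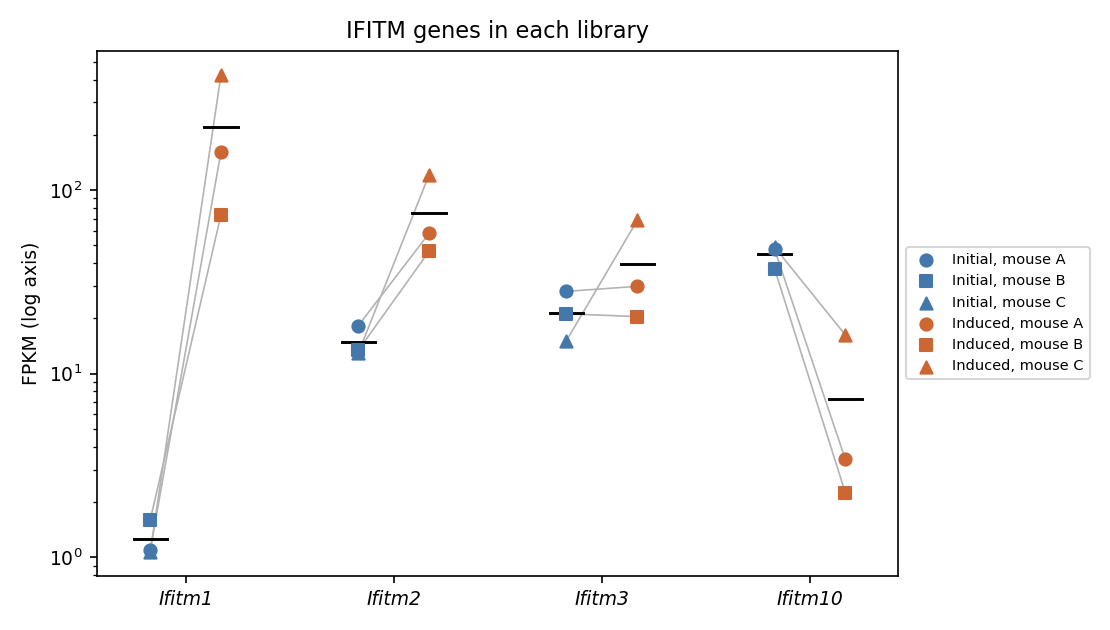
FPKM of Ifitm1, Ifitm2, Ifitm3 and Ifitm10 (log axis) in each library, blue for Initial and orange for Induced, with the shape of the point giving the mouse, grey lines joining libraries of the same mouse letter and black bars the group means. Ifitm1 lies at 1.07 to 1.60 FPKM in Initial and 73.4 to 426 FPKM in Induced libraries, Ifitm10 crosses in the other direction, and mouse C is the highest Induced point of every gene.

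The order of the levels turned over. In Initial cells the mean levels ran Ifitm10, Ifitm3, Ifitm2 and Ifitm1 from high to low, and the ranges of Ifitm3 (15.1 to 28.1 FPKM) and Ifitm2 (13.0 to 18.3 FPKM) overlapped while the others stood clear. In Induced cells the order was Ifitm1, Ifitm2, Ifitm3 and Ifitm10, and each gene overlapped its next neighbours except Ifitm10, whose highest library (16.3 FPKM) was below the lowest of Ifitm3 (20.5 FPKM). Within each Induced library the order Ifitm1, Ifitm2, Ifitm3, Ifitm10 held without exception. The 4 genes summed to 82.2 ± 11.3 FPKM before and 342 ± 256 FPKM after culture (SD, n = 3 each).

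As a share of that sum, Ifitm10 made up 54.5 ± 7.06% in Initial and 1.84 ± 0.651% in Induced cells, and Ifitm1 made up 1.57 ± 0.538% and 60.9 ± 8.37% (SD, n = 3 each). Ifitm2 held 18.0 ± 1.32% and 24.9 ± 6.90%, and Ifitm3 held 25.9 ± 5.67% and 12.3 ± 1.82%. The ratio of the endosomal pair Ifitm2 and Ifitm3 was steadier among replicates than either gene. It was 0.651, 0.634 and 0.857 in Initial and 1.94, 2.27 and 1.78 in Induced libraries A, B and C, so Ifitm3 was the higher of the pair in each Initial library and Ifitm2 in each Induced one. The ratio of Ifitm1 to Ifitm3 went from 0.0392, 0.0756 and 0.0708 to 5.41, 3.59 and 6.23.

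**Figure D2:**
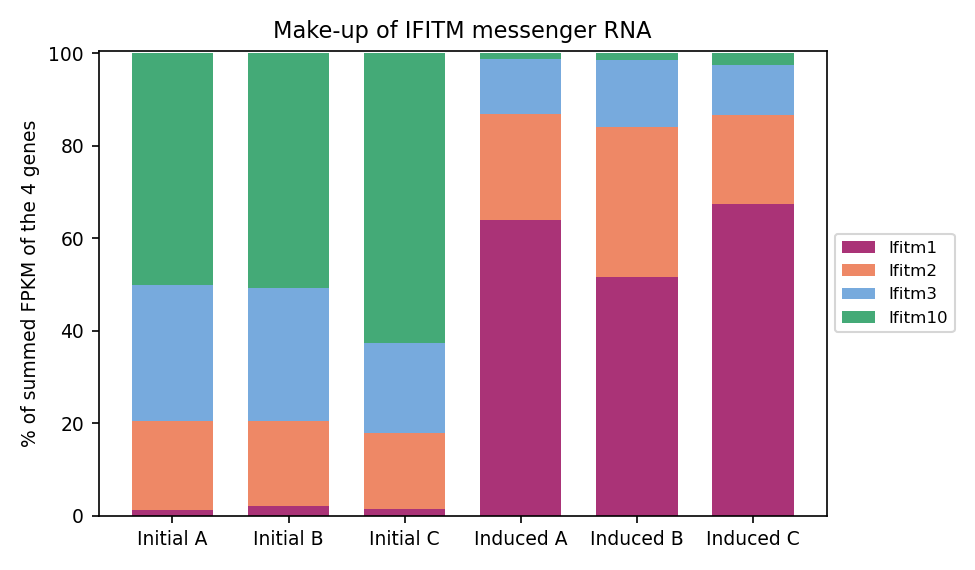
Share of each gene (% of the summed FPKM of the 4 genes) in each of the 6 libraries. Ifitm10 fills 50.1 to 62.7% of each Initial bar and 1.35 to 2.58% of each Induced bar, while Ifitm1 fills 1.16 to 2.18% and 51.5 to 67.4%.

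The sequences before the transcription starts of the 3 neighbouring genes are shown here, and how alike they are was not measured. Promoters were taken from RefSeq on GRCm38.p6 as 300 bases around each start, all 4 genes were matched, and both strands were searched for the ISRE core GAAANNGAA and the GAS core TTCNNNGAA, which are different motifs that can overlap. The ISRE core occurs in 8.6% of 32851 such promoters and the GAS core in 8.3%. The part of each window before the first exonic base inside it is shown 5′ to 3′ on the gene's strand, with the ISRE core in capitals, to set the gene with the largest rise beside its neighbours.
Ifitm1, chr7:140967826-140968027 (+): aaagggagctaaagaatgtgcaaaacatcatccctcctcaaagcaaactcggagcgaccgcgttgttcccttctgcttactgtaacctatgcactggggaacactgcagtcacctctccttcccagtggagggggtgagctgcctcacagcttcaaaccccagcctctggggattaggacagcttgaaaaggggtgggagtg
Ifitm2, chr7:140955988-140956211 (-): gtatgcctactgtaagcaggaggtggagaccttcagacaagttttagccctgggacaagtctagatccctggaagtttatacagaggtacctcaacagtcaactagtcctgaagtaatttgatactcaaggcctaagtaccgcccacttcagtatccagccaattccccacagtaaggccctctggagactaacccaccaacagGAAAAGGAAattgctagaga
Ifitm3, chr7:141010771-141010994 (-): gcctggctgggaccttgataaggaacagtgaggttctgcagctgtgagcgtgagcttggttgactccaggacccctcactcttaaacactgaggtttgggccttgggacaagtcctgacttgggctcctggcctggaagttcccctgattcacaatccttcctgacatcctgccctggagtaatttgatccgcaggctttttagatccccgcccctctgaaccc

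Ifitm2 held 1 ISRE core, 46 bases before its RefSeq start. Its letters, GAAAAGGAA, are also those of 1 ISRE core of Ifitm3. Ifitm3 held its motifs just after the RefSeq start, inside the annotated first exon, and they are shown with the motif of each line in capitals.
Ifitm3 ISRE core, chr7:141010724-141010752 (-): caaaattcagGAAAAGGAAacttctgaga
Ifitm3 GAS core, chr7:141010713-141010741 (-): aaaaggaaacTTCTGAGAAaccgaaactg
Ifitm3 ISRE core, chr7:141010707-141010735 (-): aaacttctgaGAAACCGAAactgccgcag
The GAS core overlaps the ISRE core that follows it. Neither core was found in the window of Ifitm1 or in the 3 windows of Ifitm10, which says only that these letters are not there. The RefSeq table holds 1 start for Ifitm1, while GENCODE also begins a transcript further upstream at 140967221, so the window of Ifitm1 shown lies within an intron of that longer transcript and the sequence before the upstream start was not searched. Among the lists below, the ISRE core occurs in 11 of 14 promoters of interferon-inducible GTPase genes (78.6%) and in 20 of 38 promoters of antiviral interferon-stimulated genes (52.6%). It occurs in 11 of 20 promoters of interferon genes, 2 of 7 of feedback genes and only 2 of 18 of receptor and signalling genes. The GAS core occurs in 6 of 14 GTPase, 8 of 38 antiviral and 10 of 20 interferon gene promoters. For feedback genes it is 2 of 7, and for receptor and signalling genes 5 of 18.

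Reads of these genes can be shared. Of the 50-base windows of the annotated Ifitm2 transcript, 48.5% also occur in a transcript of another gene, including 36.1% that occur in Gm45717, a gene model that overlaps Ifitm2 and is not listed in the deposited tables. Only 3.3% of the windows of Ifitm2 occur in Ifitm3, and 1.4% of those of Ifitm1 occur in Ifitm3. The share of windows found elsewhere was 5.0% for Ifitm1 and 3.5% for Ifitm10, and for Ifitm3 it was 63 of 629 windows. The level of Ifitm2 is therefore uncertain as far as the counting could have divided its reads. The coding sequences of Ifitm1, Ifitm2 and Ifitm3 were 79.3 to 80.5% identical to one another over the aligned bases, and that of Ifitm10 was 58.4 to 60.4% identical to them. The coding part of Ifitm1 is the shortest, at 321 bases, against 435 in Ifitm2, 414 in Ifitm3 and 606 in Ifitm10.

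The Induced library of mouse C stood apart in all 4 genes, and the order C, A, B from high to low held in each. Among tested genes, C was the highest Induced library in 45.3% and the order C, A, B held in 27.7%. The SD of log2(FPKM + 1) over the Induced libraries was 1.26 for Ifitm1, 0.71 for Ifitm2, 0.87 for Ifitm3 and 1.28 for Ifitm10. From the largest SD down, these are numbers 13, 74, 48 and 11 of 7945 genes with a mean Induced level of at least 5 FPKM. Deviations from the group means, pooled over the 6 libraries, gave Pearson's r of 0.868 to 0.974 in the 6 pairs of IFITM genes. The genes share libraries and depth. The SD over the Initial libraries was only 0.18 to 0.43, so these values of r rest mainly on the Induced libraries. The Initial libraries had no common order, since Ifitm1 was highest in B, Ifitm2 and Ifitm3 in A and Ifitm10 in C. Over the raw levels of the 6 libraries, which carry the group difference, r was 0.978 between Ifitm1 and Ifitm2, -0.764 between Ifitm1 and Ifitm10 and -0.138 between Ifitm3 and Ifitm10.

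Other genes moved with this library. Of the NK cell markers, Gzma, a granzyme gene, stood at 175, 113 and 462 FPKM after culture in A, B and C. Eomes, a transcription factor of cytotoxic lymphocytes, stood at 16.3, 7.16 and 46.7 FPKM, and Klrb1c, which encodes NK1.1, at 13.4, 11.9 and 30.6 FPKM. All of them were in the order C, A, B, whereas Ncr1 had a mean of 0.120 FPKM in Induced cells and Klra8 had no row there. The summed NK cell list was 120.7 to 151.5 FPKM in Initial libraries and 205, 132 and 540 FPKM in the Induced libraries of mice A, B and C. Of its 4 tested genes of 5, Gzma rose, Klrb1c and Ncr1 fell, and Eomes was not called (-1.22), though it passed the threshold without Induced library C (-1.89). Ly6c2, a surface protein of monocytes and of some T cells, had 308, 119 and 1082 FPKM after culture in A, B and C and with Ccr2, a chemokine receptor gene at 241, 219 and 217 FPKM there, makes up most of the neutrophil and monocyte list. That list summed to 417.2 to 635 FPKM in Initial and 338.2 to 1301 FPKM in Induced libraries. Of its 3 tested genes of 10, Ccr2 rose, from a mean of 18.97 to 225.6 FPKM, and Itgam fell. Ly6c2 was not called, though it passed the threshold downwards without Induced library C (-1.41). The neutrophil genes Ly6g, Elane, Cxcr2 and Csf3r were at or near 0 in every Induced library. S100a9 (1.88, 0.0883 and 0.0798 FPKM in A, B and C) and S100a8 (0.750, 0.0931 and 0.312 FPKM) were low there and highest in A. Mpo was low too (0.115, 0.372 and 0.2625 FPKM), though above its Initial levels of at most 0.055 FPKM. The part of any of these cell types in the levels of mouse C was not tested. Among myeloid and dendritic markers, Cd68 (1.69, 0.746 and 3.86 FPKM in A, B and C), Itgam (0.446, 0.233 and 1.11 FPKM) and Itgax (1.68, 0.382 and 5.85 FPKM) had the same order at low Induced levels. The order held in 1 of 9 tested macrophage markers, 2 of 3 tested neutrophil and monocyte markers and 2 of 5 tested dendritic cell markers. B cell and GTPase genes seldom had C highest, since C was the highest Induced library in 0 of 7 tested B cell markers and in 2 of 20 tested GTPase genes.

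**Figure D3:**
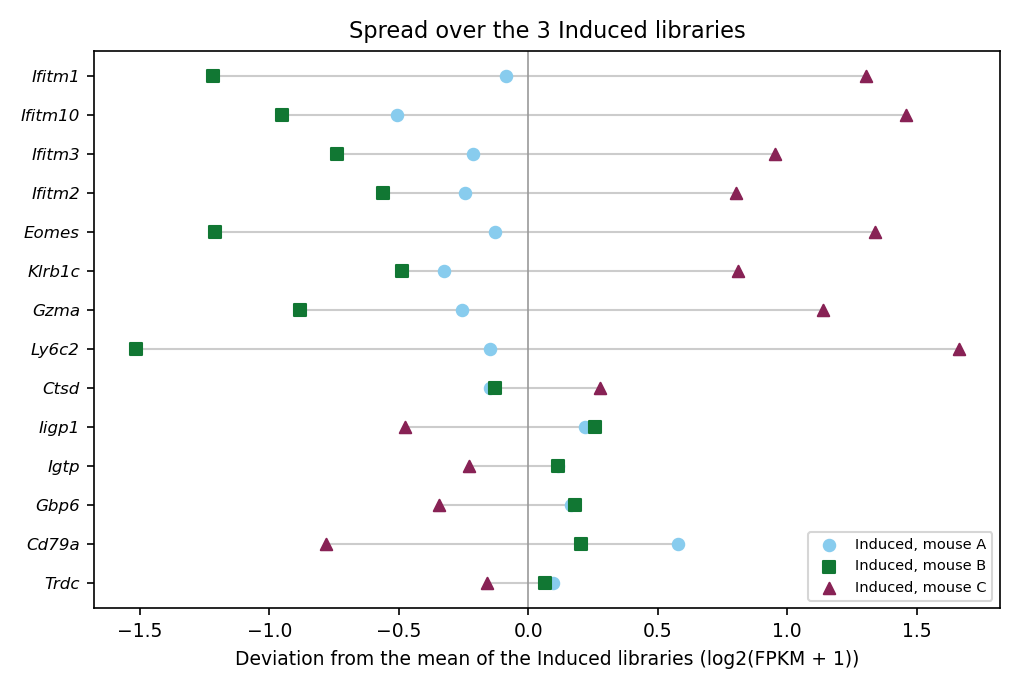
Deviation of each Induced library from the mean of the 3 Induced libraries (log2(FPKM + 1)) for the 4 IFITM genes and for genes named in the text, with the shape and colour of the point giving the mouse. Mouse C lies at the right end for the 4 IFITM genes, Eomes, Klrb1c, Gzma, Ly6c2 and Ctsd, and at the left end for Iigp1, Igtp, Gbp6, Cd79a and Trdc.

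The other relatives were few and low. Of 12 genes related to the family by their shared membrane domain, 9 were listed and 4 tested, with 1 called higher, 1 called lower and a median log2 difference of 0.05, against 70.4% called and a median of 0.03 over all tested genes. Ifitm6, which lies next to Ifitm3 and is known from myeloid cells, stood at 4.48, 3.21 and 2.66 FPKM in Initial libraries A, B and C, had no row in Induced A and B, and stood at 0.218 FPKM in Induced C. It fell by 2.04 on the log2 scale (SE 0.17, limma adjusted p = 1.9e-05), together with the macrophage markers given above. Prrt1, which encodes a synaptic protein also called SynDIG4, went from 6.99, 7.83 and 8.63 FPKM to 15.5, 17.5 and 10.7 FPKM and rose by 0.80 (SE 0.17, limma adjusted p = 0.0034). Tmem91 and Tmem265 were not called, though Tmem265 passed the threshold without Initial library C (0.47). Ifitm5, a gene of bone-forming cells, was at most 0.0526 FPKM in any library, and Ifitm7 was listed in Initial A alone, at 0.0959 FPKM.

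The tested neighbours on chromosome 7 are given beside Ifitm1, whose rise, the largest of all genes tested, none of them could exceed. Of 46 other protein-coding genes within 200 kb of the members, 28 were listed and 16 tested, and 7 rose and 3 fell with a median log2 difference of 0.18. The share called (62.5%) was near the 70.4% over all tested genes, and under scaling to the CD3 chains and Trdc 10 rose and 0 fell. The largest rise was that of B4galnt4, a glycosyltransferase gene 93.9 kb from Ifitm1, from 0.253, 0.168 and 0.227 FPKM to 11.2, 10.5 and 9.67 FPKM in A, B and C (log2 difference 3.24, SE 0.10, limma adjusted p = 1.5e-07). Its Induced libraries lay close together, unlike those of Ifitm1. Pgghg, Pkp3, Hras and Rnh1 rose by 1.02 to 1.19, Ptdss2 by 0.51 and Psmd13 by 0.32. The falls of Bet1l (-0.27) and Sigirr (-0.23) were small. Both calls were lost when the libraries were scaled to the CD3 chains and Trdc, and that of Sigirr also without Induced library A (-0.21). The call of Bet1l was lost as well with a pseudocount of 5, with no filter, with neither trend nor robust fitting, with the mouse letter as a block (adjusted p = 0.050) and without any 1 library other than Initial A (-0.16 to -0.31).

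**Figure D4:**
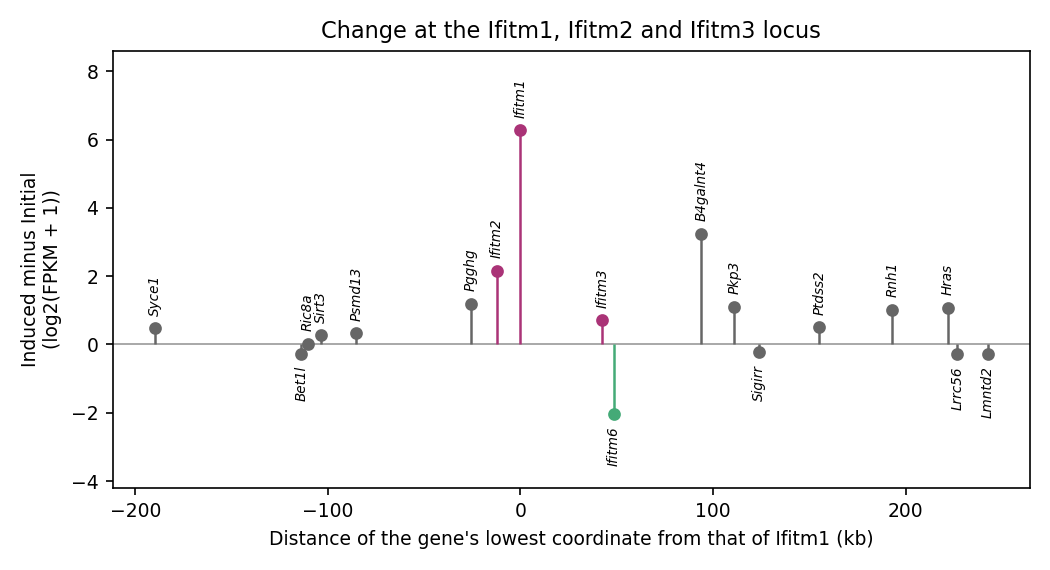
Log2 difference, Induced minus Initial, of the genes with a mean of at least 1 FPKM in either group around Ifitm1, Ifitm2 and Ifitm3, against the distance of each gene's lowest coordinate from that of Ifitm1 in kb. Members are purple, Ifitm6 green and other genes grey. Ifitm1 (6.27) and B4galnt4 (3.24) stand highest, Ifitm6 (-2.04) is lowest, and Ric8a (0.02) is near 0.

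Ifitm10 shares its deposited locus with Ctsd, the gene of the lysosomal protease cathepsin D, and with Gm49369, a gene model that overlaps both. Ctsd stood at 388, 363 and 368 FPKM in Initial and at 251, 255 and 337 FPKM in the Induced libraries of mice A, B and C, and fell by 0.42 (SE 0.12, limma adjusted p = 0.012). That call was lost when the libraries were scaled to the CD3 chains and Trdc, at -0.19, and in no other setting. Gm49369 was near 1 FPKM in both groups and was not called. As a percentage of the level of Ctsd, Ifitm10 was 12.3, 10.3 and 13.3 in Initial and 1.36, 0.884 and 4.82 in Induced libraries A, B and C. Levels of Ifitm10 were thus well below those of Ctsd throughout, and mouse C had the highest Induced value of both.

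The interferon genes themselves were nearly silent apart from Ifng. Of 21 such genes, 8 were listed and only Ifng, the gene of interferon-γ, was tested. It stood at 28.4, 42.8 and 34.4 FPKM in Initial and at 36.3, 44.1 and 48.4 FPKM after culture in A, B and C, with overlapping groups (log2 difference 0.29, SE 0.16, limma adjusted p = 0.14). It passed the threshold with the mouse letter as a block (adjusted p = 0.032), with scaling to the CD3 chains and Trdc (0.034) and without Initial library B (0.034). Every listed interferon-α gene was at most 0.0892 FPKM and had no row in any Induced library, and Ifnb1 had no row in any library.

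Receptors and signal carriers of the pathway were called about as often as other genes (68.8%, against 70.4% over all tested genes). Of 16 tested genes 3 rose and 8 fell, with a median log2 difference of -0.17, and 4 rose and 5 fell under scaling to the CD3 chains and Trdc. Stat2, a carrier of the type I interferon signal, rose from 11.5 ± 0.603 to 28.2 ± 0.463 FPKM (SD, n = 3 each), a log2 difference of 1.22. Irf9, its DNA-binding partner, rose by 0.29 (limma adjusted p = 0.033), a call lost with no filter, with TMM-like factors, with quantile normalization and without Initial A, Induced A or Induced B (0.18 to 0.29). Irf7, which drives type I interferon genes, fell from 63.7 ± 3.24 to 22.3 ± 0.787 FPKM (SD, n = 3 each).

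Among the receptor chains, Ifngr2 fell from 43.1 ± 0.894 to 14.2 ± 2.85 FPKM and Ifnar1 from 77.7 ± 4.89 to 40.1 ± 10.5 FPKM (SD, n = 3 each), while Ifngr1 was not called (799 ± 58.3 and 741 ± 18.98 FPKM). The kinase genes Jak1 and Jak2 fell by 1.17 and 1.29. Smaller falls were those of Ifnar2 (-0.32), Irf2 (-0.33) and Tyk2 (-0.19). All of these 3 calls were lost under scaling to the CD3 chains and Trdc, where Tyk2 turned to 0.03. The call of Ifnar2 was lost also with no filter and without Initial C, Induced A or Induced B (-0.25 to -0.32), and that of Tyk2 with no filter, with neither trend nor robust fitting and without any 1 library other than Induced B (-0.16 to -0.20). Stat3, Irf1, Irf8 and Il10rb were not called, though without Induced library C Irf8 passed the threshold upwards (0.31, as it did under scaling to the CD3 chains and Trdc) and Il10rb downwards (-0.34).

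Of the 9 feedback genes 3 rose and 5 fell, with a median of -0.22. The share called was 88.9%, against 70.4% over all tested genes. Under scaling to the CD3 chains and Trdc 4 rose and 3 fell. Socs1, the inhibitor of interferon receptor kinases, rose from 43.4, 51.6 and 63.0 FPKM to 212, 228 and 194 FPKM in A, B and C. Cish, an inhibitor induced by STAT5, rose from 20.0 ± 4.71 to 171 ± 22.3 FPKM (SD, n = 3 each), and the phosphatase gene Ptpn1 rose by 0.70. Socs3, which restrains STAT3, fell from 192 ± 24.0 to 12.8 ± 3.09 FPKM (SD, n = 3 each). Usp18, which blocks the type I interferon receptor, fell by 1.19, and its Induced levels of 7.20, 5.02 and 16.1 FPKM in A, B and C followed the order of the IFITM genes. That call was lost under scaling to the CD3 chains and Trdc and without Initial B, Initial C, Induced A or Induced B (-0.86 to -1.22). The phosphatase gene Ptpn6 fell by 0.87, the ubiquitin-like modifier gene Isg15 by 1.31 and Pias1, a SUMO ligase gene, by 0.22. The call of Pias1 was lost under scaling to the CD3 chains and Trdc and without any 1 library other than Initial C.

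Of 20 tested interferon-inducible GTPase genes, which act against intracellular microbes, 19 rose and 0 fell, with a median log2 difference of 2.41, against 70.4% called over all tested genes. Iigp1 stood at 5.82, 7.04 and 6.58 FPKM in Initial and at 322, 332 and 199 FPKM after culture in A, B and C (log2 difference 5.22, SE 0.19, limma adjusted p = 6e-07). Gbp6 rose by 4.21 and Igtp by 3.92. Iigp1, Gbp6 and Igtp were each lowest in Induced library C, where the IFITM genes were highest.

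Of 41 tested antiviral interferon-stimulated genes 12 rose and 16 fell, with a median of -0.12, and the share called (68.3%) was near the 70.4% over all tested genes. Under scaling to the CD3 chains and Trdc the balance turned over, with 17 higher and 10 lower. The largest rises were those of Lgals3bp, a secreted glycoprotein gene (1.72), the nucleic acid sensor gene Zbp1 (1.41) and the exonuclease gene Isg20 (1.41). The largest falls were those of Oasl1 (-2.63), Ifit3 (-2.52) and Oas1a (-2.18), a synthetase gene of the RNase L pathway. Ifit3 went from 18.4 ± 0.372 to 2.40 ± 0.378 FPKM (SD, n = 3 each). Ifitm2 and Ifitm1 thus lay above the median of this list and within or above the range of the GTPase list. Ifitm3 (0.71), whose groups overlapped, also lay above that median and within the range of the GTPase list. Ifitm10 lay below the range of both lists (-2.85).

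**Figure D5:**
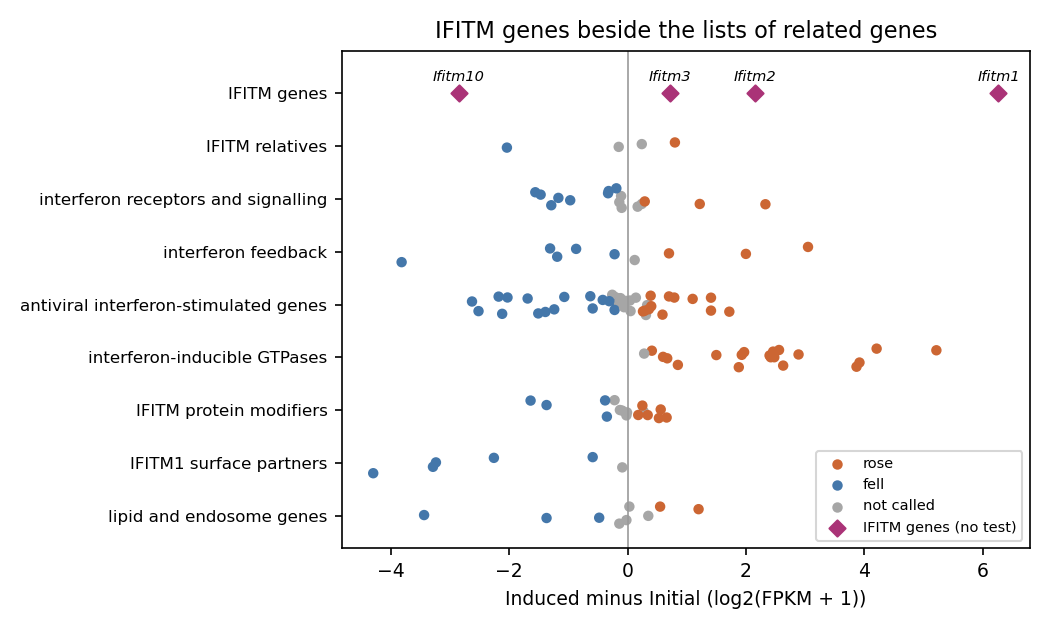
Log2 difference, Induced minus Initial, of each tested gene in the lists of related genes (points, orange for rose, blue for fell and grey for not called by limma) and of the 4 IFITM genes (purple diamonds, no test). The GTPase genes lie to the right of 0 around a median of 2.41, the antiviral genes lie on both sides around -0.12, and Ifitm1 (6.27) lies to the right of every gene shown.

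Genes that handle IFITM proteins were called about as often as other genes (62.5%, against 70.4% over all tested genes). Of 16 tested genes for their lipid attachment, ubiquitination, phosphorylation, sorting and binding partners, 6 rose and 4 fell, with a median of -0.01, and 8 rose and 2 fell under scaling to the CD3 chains and Trdc. The largest rises were those of Zmpste24, a membrane protease that works with IFITM proteins (0.66), the clathrin adaptor gene Ap2a1 (0.56) and the palmitoyltransferase gene Zdhhc3 (0.53). The largest falls were those of Fyn, a kinase that phosphorylates the sorting signal of IFITM3 (271 ± 27.6 to 89.2 ± 31.7 FPKM, SD, n = 3 each; -1.64), the ubiquitin ligase gene Nedd4l (-1.37) and Vapa (-0.38), whose product binds IFITM3 at membrane contacts. Zdhhc20, which attaches palmitate to IFITM3, also fell (-0.35). The calls of Vapa and Zdhhc20 were lost under scaling to the CD3 chains and Trdc.

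Most of the surface partners of IFITM1 fell while Ifitm1 itself was higher. Of 6 tested genes 0 rose and 5 fell, with a median of -2.75. The share called was 83.3%, against 70.4% over all tested genes. Cd81, a tetraspanin gene, stood at 65.5, 55.9 and 40.2 FPKM in Initial and at 2.56, 1.72 and 1.09 FPKM in the Induced libraries of mice A, B and C (log2 difference -4.30, SE 0.23, limma adjusted p = 3.1e-06). Cd9 fell from 84.5 ± 2.62 to 16.9 ± 2.41 FPKM, Cd63 from 3.39 ± 0.450 to 1.92 ± 0.239 FPKM and Cr2 from 10.03 ± 1.38 to 0.125 ± 0.0559 FPKM (SD, n = 3 each). Cd82 was not called (246 ± 29.3 and 232 ± 34.2 FPKM). Cr2 is a gene of B cells, and its fall went with those of the 7 tested B cell markers, whose part was not tested. The macrophage markers fell as well. Whether other cells had a part in the falls of Cd81, Cd9 and Cd63 was not tested either.

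Of 9 lipid and endosome genes 2 rose and 3 fell, with a median of -0.02. The share called was 55.6%, against 70.4% over all tested genes. The endosome gene Rab5c rose by 1.2 and Lamp2, a lysosomal membrane protein gene, by 0.55. The cathepsin genes Ctsl and Ctsb, which some viruses need for entry from endosomes, fell by 3.44 and 1.37, and Rab5a fell by 0.48. Under scaling to the CD3 chains and Trdc 5 of these 9 genes rose and 3 fell.

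By a fixed rule, the 5 genes most like each IFITM gene were those with the highest Pearson's r with it over the 6 libraries on log2(FPKM + 1), among 8312 genes with a mean of at least 5 FPKM in the higher group. For Ifitm1 these were Iqgap2, Cluh, Mthfd1, Fam160a2 and Pelp1, with r of 0.998 to 0.9987. Iqgap2, the closest, went from 13.5, 13.3 and 13.4 FPKM to 20.8, 19.5 and 23.6 FPKM in A, B and C, so its pattern was like that of Ifitm1 at a far smaller amplitude. For Ifitm2 they were Gclm, Snx10, Alas1, Api5 and Srm, with r of 0.9955 to 0.9974. For Ifitm3 they were Ssbp2, Plekha3, Parl, Etfbkmt and Eif4b, with r of 0.9718 to 0.9935. Ssbp2 stood at 32.0, 28.6 and 21.3 FPKM in Initial and at 32.7, 27.8 and 58.7 FPKM after culture in A, B and C, so it too was well above its Initial range in mouse C alone. For Ifitm10 they were Fgf13, Pknox1, Rras2, Ly6c1 and Tnfrsf18, with r of 0.9969 to 0.9994. Fgf13 went from 27.5, 25.0 and 30.1 FPKM to 3.97, 2.80 and 12.9 FPKM in A, B and C, and Ly6c1, a surface protein gene of lymphocytes and monocytes, from 23.2, 18.6 and 19.8 FPKM to 2.09, 1.02 and 8.75 FPKM. With 6 libraries in 2 groups such values of r are easily reached, and they share library and depth.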

How the data were processed

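Messenger RNA was measured in 3 Initial and 3 Induced libraries. Per the labels' protocols, Cuffdiff gave FPKM values for coding genes. The build mm9, HISAT2 2.0.5, CASAVA and Cuffdiff, as both 1.3.0 and 2.2.1, are named per the submitters' processing notes. The FPKM values were used as deposited by the authors. The deposited positions are not those of mm9: of 26669 identifiers found in GENCODE for GRCm38, 90.72% lie inside the span the files give, so positions are from that annotation. The sources used here do not say whether counting used strand. A gene without a row in a library counted as 0, and 24 symbols turned into dates were restored from their identifiers.

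Genes with at least 1 FPKM in at least 3 libraries entered a limma test (limma 3.58.1, R 4.3.3) on log2(FPKM + 1) (mean-variance trend, robust, two-sided, no block), with Benjamini-Hochberg adjustment over all 11265 genes. Other steps used Python 3.11.15, numpy 2.4.6, pandas 2.3.3 and matplotlib 3.10.9. The script was checked on simulated data. Depth was estimated from steps in low values, 43.6 to 50.4% of which lay within 0.15 of a whole fragment, where chance gives 30%. The mouse letters of the labels pair the groups. Deviations from the group means correlated at 0.039, 0.031 and 0.131 in mice A, B and C, and at -0.132 to 0.099 between different mice. The p-values measure the spread between these libraries, and group, culture and purification cannot be told apart.

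The members and the 9 gene and 8 marker lists were chosen with earlier results of these data known. Named genes are the members, the genes of the family, interferon, signalling, feedback and surface partner lists, the 3 largest rises and falls called in each other list, called neighbours within 200 kb, and the 5 genes most correlated with each member. Values of 2 list genes are not reported here. Alternatives tried were a pseudocount of 0.1 or of 5, leaving the filter out or raising it to 5 FPKM, TMM-like factors, quantile normalization, scaling to the CD3 chains and Trdc, a replicate block, a fit with neither trend nor robust shrinkage, and leaving out each library.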

Additional observations from a re-analysis of the deposited data

How the results depend on the processing

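The signs of the mean differences of Ifitm1, Ifitm2, Ifitm3 and Ifitm10 held under every alternative run. This is no test of them, since the genes were selected on these values, and the groups of Ifitm3 overlapped. The log2 difference of Ifitm1 was 4.83 with a pseudocount of 5 and ranged from 5.62 to 6.88 when 1 library was left out. For Ifitm3 the range was 0.24 to 1.08, lowest without Induced library C. For Ifitm2 it was 1.75 to 2.43 and for Ifitm10 -3.58 to -2.37, with the lowest value of each without Induced library C. With the mouse letter as a replicate block, 7943 genes were called in all against 7931, 1 interferon gene (Ifng) was called against 0, and no other list's count moved by over 1.5 times. Scaling to the CD3 chains and Trdc called 1 interferon gene and 8 lipid and endosome genes (5 in the main fit), and leaving out 1 library gave 0 to 1 interferon genes. With a filter at 5 FPKM only 1 of the IFITM relatives was tested and it was called, against 2 before. With 3 libraries a group, low levels such as those of Ifitm1 before culture, at about 19 to 27 fragments, limit the precision of its ratio.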
